A study of Mus musculus with 41 samples.

Results

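Spleens of C. parvum-treated p53 knockout mice were compared with spleens of C. parvum-treated NOS2 knockout mice, to ask which miRNA levels differ between these 2 genotypes under the same inflammatory stimulus. The comparison used the 10 arrays, of 41 in the study, whose titles name C. parvum with p53-/-NOS2+/+ (5 arrays, here p53KO) or with p53+/+NOS2-/- (5 arrays, here NOS2KO). The mice were of strain C57BL, and the study also held wild-type (WT) and double-knockout (DKO) mice and saline controls of each genotype. The design text gives 4 or 5 mice for each grouping, and nothing else says how the arrays of a group are related. The p-values therefore measure the spread between arrays, which the fits of rows pooled over all 8 groups of the study. Neither knockout group carries the other's deletion, so a difference does not say which genotype departs from WT. No source used here gives the age or sex of the mice, the dose of C. parvum, the time after it or how each deletion was made. Each array read total spleen RNA, so fewer cells of a type and less of a miRNA per cell cannot be told apart.

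The protein p53, encoded by Trp53, is a transcription factor activated by DNA damage and stress, and its known miRNA targets include the miR-34 family. NOS2 is the inducible nitric oxide synthase, which activated macrophages use to make nitric oxide. C. parvum (Corynebacterium parvum) is a bacterium whose preparations are used to provoke macrophage-rich inflammation in the spleen and liver of mice. A miRNA is a short RNA cut from a hairpin precursor. It guides a silencing complex to messenger RNAs mainly through its seed, bases 2 to 8 from the 5′ end.

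A level is a normalized log2 signal of a probe row, and a difference is the p53KO mean minus the NOS2KO mean on that scale, with its standard error (SE). The logarithm's base is unstated and was taken as 2 from the range of the values. Row names end mostly in -a or -p, and no source used here explains these endings. The sequences of the probes are not held in the files used here, so the arm of a hairpin that a row reads is known only where its name gives it. A row was tested where both groups had at least 3 values, and it was called where limma's p, adjusted by Benjamini-Hochberg over all tested rows, was under 0.05.

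The arrays fell into separate sets by 1 row, miR-370-a, in a way that the labels do not describe. Of the 41 arrays, 23 had a deposited value above 10 in this row and 18 had a lower one. All 5 p53KO arrays lay above 10, from 11.4 to 12.4. In the NOS2KO group, arrays 3, 4 and 5 lay above 10 and arrays 1 and 2 had 8.98 and 9.24. The saline controls of both genotypes all lay above 10. The called rows and the lists are therefore also given for the 8 treated arrays above 10 (5 against 3). An array gave values for 366.4 ± 15.7 rows in p53KO and 379.2 ± 21.7 in NOS2KO (SD, n = 5 each), which did not differ in a two-sided exact permutation test (p = 0.31 over 252 arrangements). Correlations between arrays of a group ran from 0.943 to 0.985 in p53KO and from 0.899 to 0.981 in NOS2KO, and 0 pairs were identical.

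Of the 10 rows called, 9 matched a RefSeq miRNA gene by name, and the sequences below are RefSeq's on GRCm38.p6. The row for miR-123 had no match and keeps the name in the file. Mature miRNAs of let-7f, miR-29, miR-193, miR-199a and miR-210 are shown with the seed in capitals, for the families and the rows that the results below describe most. Where the row name gives no arm, both arms are shown for miR-193, and the miR-210 arm shown is the 3p one.
miR-193a-3p: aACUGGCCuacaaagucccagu
miR-193a-5p: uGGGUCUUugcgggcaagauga
let-7f-5p: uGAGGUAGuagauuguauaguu
miR-29a-3p: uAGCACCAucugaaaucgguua
miR-29b-3p: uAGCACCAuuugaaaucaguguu
miR-29c-3p: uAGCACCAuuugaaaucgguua
miR-199a-3p: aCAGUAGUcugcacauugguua
miR-210-3p: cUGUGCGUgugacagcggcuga

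The GAGGUAG seed of let-7f is shared by 11 mature names in the table, and the AGCACCA seed by the 3 miR-29 members. In the first 22 bases miR-29a differs from miR-29c at 1 base and from miR-29b at 4. Likewise let-7f differs from let-7a at 1 base and from let-7g at 2. No source used here says whether the probes of a family tell these sequences apart, so rows of a family are not independent readings. The let-7f hairpins from chromosome 13 (chr13:48537829-48537917, minus strand) and the X chromosome (chrX:151912346-151912428, plus strand) are shown because each has its own row. The capitals mark the mature let-7f arm, which is the same in both.
let-7f-1 hairpin: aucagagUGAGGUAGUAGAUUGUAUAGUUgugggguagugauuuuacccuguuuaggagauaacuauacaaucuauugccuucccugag
let-7f-2 hairpin: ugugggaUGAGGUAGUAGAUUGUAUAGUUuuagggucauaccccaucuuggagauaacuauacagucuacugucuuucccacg

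Between the treated genotypes, 10 rows were called and 332 tested rows were not (2.92% called), 8 of them higher in p53KO (2.34%) and 2 lower (0.585%). Higher in p53KO were rows for let-7f, miR-29b (2 rows), miR-193, miR-199a, miR-123, miR-28 and miR-221, by 0.53 to 1.24 log2 units. With arrays only centred on their medians 10 rows were also called, but 6 of them were higher and 4 lower. Lower in p53KO were a row for the hypoxia-induced miR-210 and one for miR-218-1. At an unadjusted p under 0.05 there were 80 rows (23.4%). The count of calls changed with the arrays included, among them the 2 NOS2KO arrays with low miR-370. It also relied on a spread pooled over all 8 groups of the study. With the set as a block, or with only the 10 arrays fitted, 0 rows were called, against 58 and 55 at an unadjusted p under 0.05. Without NOS2KO array 1, NOS2KO array 2 or p53KO array 2, 0 rows were called, against 51, 55 and 57 at an unadjusted p under 0.05. Among the 8 arrays above 10, all 10 rows kept their direction, 9 kept more than 50% of their size and 9 had an unadjusted p under 0.05, but 0 of the 10 were called there. These 8 arrays are among those that chose the rows, so this is a description. Over all rows, 82.1% kept their sign there, and 50 of 312 had an unadjusted p under 0.05.

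**Figure D1:**
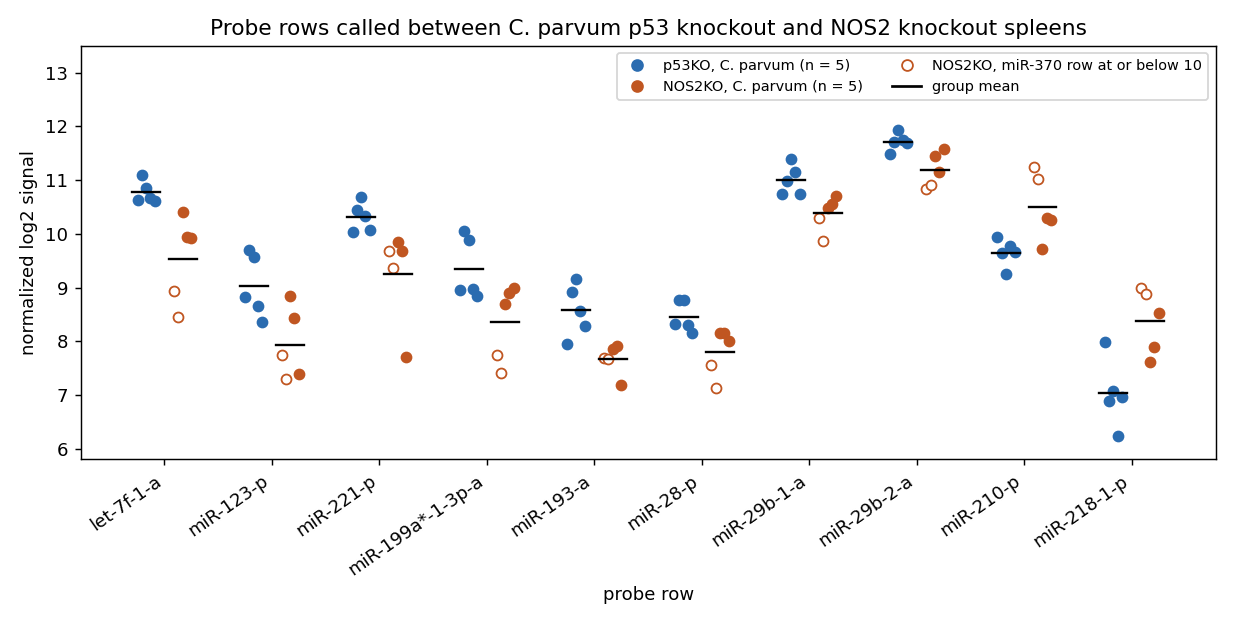
Normalized log2 signal (vertical axis) of the 10 called probe rows (horizontal axis) in every C. parvum array, with p53KO in blue, NOS2KO in orange and the group mean as a black bar. Open circles are the 2 NOS2KO arrays whose miR-370 row is at or below 10; they are the lowest NOS2KO arrays for let-7f-1, miR-199a*-1, miR-28 and both miR-29b rows, and the highest for miR-210 and miR-218-1.

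The miR-193 row was higher in p53KO, by nearly the same amount with all 10 arrays as with the 8 of them above 10 in miR-370. The human miR-193a has been described as a repressor of the survival gene MCL1. Its p53KO levels were 7.95, 8.92, 9.15, 8.57 and 8.28, and its NOS2KO levels were 7.69, 7.66, 7.86, 7.92 and 7.18. Every p53KO array lay above every NOS2KO array, by a margin of 0.03 at the closest. The difference was 0.91 ± 0.24 (limma adjusted p = 0.0335), or 1.88-fold, and 0.92 ± 0.27 in the 8 arrays above 10 (adjusted p = 0.158). Leaving out single arrays gave 0.77 to 1.07. The 2 low NOS2KO arrays exceeded the other 3 by only 0.02 in this row.

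The let-7f-1 row had the largest positive difference among the called rows, and the 2 low arrays carried much of it. The let-7 family holds differentiation-linked miRNAs that repress the HMGA2 message. Its p53KO levels were 10.64, 11.10, 10.86, 10.66 and 10.61. Its NOS2KO levels were 8.93 and 8.46 in the low arrays and 10.41, 9.94 and 9.92 in the other 3. The groups did not overlap, as in 4.09% of the tested rows. Without the low arrays they did not overlap either, as in 7.69% of the rows tested there. The difference was 1.24 ± 0.28 (adjusted p = 0.0128), and 0.68 ± 0.17 in the 8 arrays (adjusted p = 0.074). The let-7f-2 row, named for the locus that gives the same mature RNA, differed by 0.75 ± 0.29 (adjusted p = 0.109) and by 0.17 ± 0.15 in the 8 arrays. The 2 low arrays lay 1.40 below the other NOS2KO arrays in the let-7f-1 row and 1.44 below in the let-7f-2 row.

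All 12 tested -a rows of the let-7 family had differences above 0, with a median of 0.41, against 0.12 over all 228 tested -a rows. The let-7f-1 row was the 1 called. Next by p came let-7g at 0.66 ± 0.21 (adjusted p = 0.0586, and 0.34 ± 0.16 in the 8 arrays) and let-7f-2. The 3 tested -p rows of the family were all below 0, with a median of -0.13 and a lowest value of -0.77 for let-7e-p, and 0 were called. In the 8 arrays the family median was 0.09, against 0.06 over all -a rows, with 10 of 12 above 0. The low NOS2KO arrays were below the other 3 in 12 of 12 let-7 rows, with a median gap of -0.93, while over all -a rows the median gap was -0.01. WT arrays, all at or below 10 in miR-370, had let-7f-1 levels of 9.48 ± 0.12 after C. parvum and 9.19 ± 0.62 without it (SD, n = 5 each).

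Of the 5 tested -a rows of the miR-29 family, 2 were called, both for miR-29b. The miR-29 family is known for repressing collagen and other matrix messages and the DNA methyltransferases DNMT3A and DNMT3B. The miR-29b-1 row had p53KO levels of 10.75, 10.99, 11.40, 11.15 and 10.75 and NOS2KO levels of 10.30, 9.86, 10.47, 10.56 and 10.71. The groups did not overlap, but the highest NOS2KO array was 0.04 below the lowest p53KO array. The difference was 0.63 ± 0.17 (adjusted p = 0.0335) and 0.43 ± 0.18 in the 8 arrays. The miR-29b-2 row, from the other locus with the same mature sequence, differed by 0.53 ± 0.15 (adjusted p = 0.0379) and by 0.32 ± 0.15 in the 8 arrays, and its groups overlapped. The miR-29c row (0.62 ± 0.20, adjusted p = 0.0586) and the miR-29a row (0.40 ± 0.17, adjusted p = 0.163) did not pass, and their values in the 8 arrays were 0.60 ± 0.21 and 0.40 ± 0.19. The fifth row, miR-29b-a, differed by 0.41 ± 0.18 (adjusted p = 0.176) and by 0.17 ± 0.19 in the 8 arrays. The median over the 5 tested -a rows was 0.53, and 0.40 in the 8 arrays, with all 5 above 0 in both. Of the 3 tested -p rows 1 was above 0, with a median of -0.11 and 0 called. In the genome the miR-29b-1 gene neighbours miR-29a, and the miR-29b-2 gene neighbours miR-29c, each within 10000 bases. The low arrays lay 0.50, 0.52 and 0.59 below the others in the miR-29b-1, miR-29b-2 and miR-29b rows, but 0.04 and 0.02 below in the miR-29c and miR-29a rows.

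**Figure D2:**
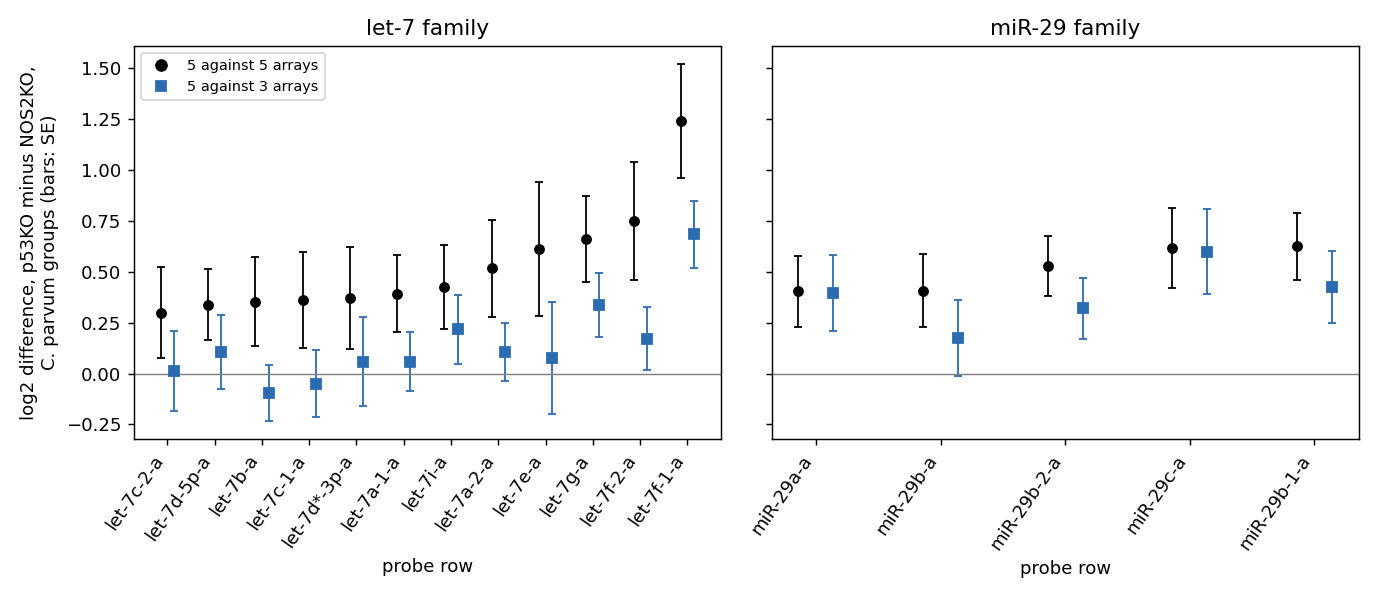
Difference in log2 signal between p53KO and NOS2KO after C. parvum (vertical axis, bars are SE) for the tested -a rows of the let-7 family (left) and the miR-29 family (right), with all 10 arrays (black circles) and with the 8 arrays above 10 in miR-370 (blue squares). All 12 let-7 rows lie nearer to 0 in the 8 arrays, with let-7f-1 highest at 0.68, while miR-29a and miR-29c hardly move and the 3 miR-29b rows lie nearer to 0.

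The miR-221-p row had p53KO levels of 10.03, 10.45, 10.68, 10.32 and 10.07. Its NOS2KO levels were 9.68, 9.36, 9.84, 9.68 and 7.71, so the groups did not overlap and array 5 stood far below the others. The miR-221 and miR-222 genes are neighbours, and their products repress the cell cycle inhibitor p27 and the receptor KIT. The difference was 1.06 ± 0.30 (adjusted p = 0.0471), 1.23 ± 0.38 in the 8 arrays, and 0.67 without NOS2KO array 5, where it was not called. The miR-221-a row differed by 0.01 ± 0.20 and the miR-222-a row by 0.39 ± 0.23 (adjusted p = 0.31, and 0.02 in the 8 arrays).

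Among the other higher rows, miR-199a*-1-3p is a product of a gene known from mesenchymal cells. Its p53KO levels were 8.95, 10.05, 9.89, 8.98 and 8.84, and its NOS2KO levels were 7.74, 7.42, 8.70, 8.90 and 8.998. Groups overlapped, with the 2 low arrays lowest, and the difference was 0.99 ± 0.27 (adjusted p = 0.0335) against 0.47 ± 0.27 in the 8 arrays. The miR-123-p row had p53KO levels of 8.82, 9.70, 9.57, 8.66 and 8.35 and NOS2KO levels of 7.75, 7.29, 8.84, 8.43 and 7.39. These groups overlapped too, and the difference was 1.08 ± 0.29 (adjusted p = 0.0335), or 0.81 ± 0.31 in the 8 arrays. The miR-123-a row was not called and was at 0.36 ± 0.19 in the 8 arrays. The miR-28-p row had p53KO levels of 8.31, 8.78, 8.76, 8.30 and 8.15 and NOS2KO levels of 7.55, 7.13, 8.15, 8.16 and 8.01. Its difference was 0.66 ± 0.18 (adjusted p = 0.0335), and 0.36 ± 0.16 in the 8 arrays, with overlapping groups in both.

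The row lower in p53KO with the smallest p was miR-210-p. The miR-210 gene is induced by hypoxia through HIF, and its mature 3p product is known to lower mitochondrial iron-sulphur cluster assembly. The row's p53KO levels were 9.94, 9.64, 9.25, 9.77 and 9.66. Its NOS2KO levels were 11.25 and 11.01 in the low arrays and 9.73, 10.30 and 10.25 in the others. The low arrays were the highest 2, and the groups overlapped. The difference was -0.86 ± 0.19 (adjusted p = 0.0128), or 0.55-fold, and -0.44 ± 0.18 in the 8 arrays. The miR-218-1-p row had p53KO levels of 7.99, 6.88, 7.08, 6.23 and 6.96 and NOS2KO levels of 8.998, 8.89, 7.61, 7.89 and 8.52. Its difference was -1.35 ± 0.33 (adjusted p = 0.0273), and -0.97 ± 0.35 in the 8 arrays, and the groups overlapped through p53KO array 1.

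Just outside the threshold lay miR-672-a at 0.88 ± 0.26, miR-7-1-p at 0.74 ± 0.22 and miR-760-p at -0.86 ± 0.26 (adjusted p = 0.0521 each). In the 8 arrays the latter 2 were at 0.65 ± 0.24 and -0.70 ± 0.26, and miR-672-a had too few values to be tested. In 14 of the tested rows (4.09%) the groups did not overlap, and 4 of these rows were among the 10 called. In the 8 arrays above 10, a fit of the 23 such arrays of the study called 1 of 312 rows, miR-218-a. Its p53KO levels were 8.06, 8.66, 8.66, 8.18 and 8.08 and its NOS2KO levels there were 6.76, 7.23 and 7.49. That difference was 1.17 ± 0.24 (adjusted p = 0.0309), whereas with all 10 arrays, where the low ones read 7.13 and 8.72, it was 0.86 ± 0.33 (adjusted p = 0.109). The miR-218-a and miR-218-1-p rows thus differed in opposite directions, and the genes that make miR-218 share its 5p sequence.

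Known p53 targets were not called after C. parvum with all 10 arrays. The miR-34a row, the best-known p53 target among miRNAs, was measured on 4 NOS2KO arrays (6.23, 6.22, 5.87 and 8.11) and on all 5 p53KO arrays (6.69, 6.96, 7.81, 7.34 and 6.73). Its difference was 0.50 ± 0.34 (adjusted p = 0.371, and 0.37 ± 0.37 in the 8 arrays). Apart from array 5, the measured NOS2KO arrays lay below every p53KO array. Without array 5 the difference was 0.997 ± 0.307 and was called (adjusted p = 0.042), on 3 NOS2KO values. The miR-34b-p and miR-34c-p rows differed by -0.02 and 0.05, values whose sign changed with the scaling for miR-34c-p (-0.03 with median centring) and with the set of arrays for miR-34b-p (0.26 in the 8 arrays). Of 11 tested -a rows of p53-responsive miRNAs, 9 had differences above 0 and 0 were called, with a median of 0.39 (0.25 in the 8 arrays), and the 5 tested -p rows had a median of 0.05 (0.26 in the 8 arrays). The smallest p in that list belonged to miR-215 (0.78 ± 0.30), miR-143 (0.64 ± 0.26) and miR-15a (0.51 ± 0.21), with adjusted p from 0.109 to 0.151.

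Markers of blood cell types were also compared. The lymphoid list had 7 of 8 tested -a rows above 0, a median of 0.36 (0.34 in the 8 arrays) and 0 called. Its first member was miR-150, abundant in mature lymphocytes, with p53KO levels of 14.21, 14.51, 14.80, 14.35 and 14.35 and NOS2KO levels of 13.72, 13.51, 14.21, 14.21 and 12.17. Its difference was 0.88 ± 0.28 (adjusted p = 0.0586), and 0.92 ± 0.32 in the 8 arrays. NOS2KO array 5 was the lowest, and without it the difference was 0.54 ± 0.25 (adjusted p = 0.148). The next lymphoid rows were miR-142-5p at 0.42 ± 0.19 and miR-181a-5p at 0.36 ± 0.19. The erythroid list had its 3 tested -a rows below 0, its 2 -p rows at -0.11 and 0.01, and 0 called. The -a rows were miR-144 at -0.76 ± 0.39 (adjusted p = 0.227), miR-486 at -0.40 ± 0.39 and miR-451 at -0.19 ± 0.33, with values of -0.80, -0.32 and -0.57 in the 8 arrays. The miR-486 level was 11.90 in p53KO array 3 against 14.21 to 14.51 in the other 4. Without that array the differences were -0.36 for miR-144, 0.09 for miR-486 and 0.02 for miR-451. The shared sign after C. parvum thus rested on it, and without NOS2KO array 3 miR-451 was at 0.01. Among the saline controls, which are other arrays, the 3 rows were also below 0, with 0 called. There miR-144 was at -1.13, miR-486 at -1.13 and miR-451 at -0.73 (limma adjusted p from 0.164 to 0.26). The myeloid list had a median of 0.05 over 5 rows, led by miR-223 at 0.42 ± 0.19 (0.07 in the 8 arrays), with miR-24-2 at 0.22 and miR-27a at 0.05 next.

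Of 9 stromal and smooth muscle -a rows, 7 were above 0 and 1 was called, miR-199a*-1-3p, with a median of 0.48 (0.26 in the 8 arrays). Another miR-199a*-3p row differed by 0.72 ± 0.23 and miR-497 by -0.53 ± 0.17 (adjusted p = 0.0586 each). In the 8 arrays the miR-199a*-2-3p and miR-199a*-3p rows were at 0.27 ± 0.22 and 0.35 ± 0.23. The stromal level, as the mean of the 8 rows measured on all 10 arrays, ran from 9.92 to 10.3 in p53KO and from 9.46 to 10.1 in NOS2KO. The lymphoid mean over 8 rows ran from 10.8 to 11.2 in p53KO and from 10.3 to 10.8 in NOS2KO, and the erythroid mean over 2 rows from 12.2 to 14.3 and from 13.4 to 14.4. The part of cell composition in the called differences was not tested. The 2 tested endothelial -p rows were miR-221-p, called as given above, and miR-296-p at 1.24 ± 0.53 (adjusted p = 0.169). Of 5 endothelial -a rows, 4 were above 0 with a median of 0.12 (0.10 in the 8 arrays), led by miR-222, miR-126-5p (0.26 ± 0.22) and miR-296 (-0.35 ± 0.41). Of 16 progenitor -a rows, 13 were above 0 with a median of 0.16 (0.06 in the 8 arrays), led by miR-10b (0.34), miR-125b-2 (0.35) and miR-196a (-0.31). Of the 4 tested progenitor -p rows 3 were below 0, with a median of -0.67, and miR-196a-2-p had the smallest p at -0.85 ± 0.27 (adjusted p = 0.0586). Apart from miR-221-p, neither list had a call, and the called miR-123-p row was a member of neither list.

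Inflammation-linked miRNAs did not pass the threshold either. Of 11 tested -a rows, 8 were above 0, with a median of 0.16 (0.08 in the 8 arrays). The smallest p belonged to miR-132 (0.76 ± 0.29) and miR-212 (-0.55 ± 0.21), which come from 1 locus and had opposite signs, both with adjusted p = 0.109. Next was a miR-9 row at -0.40 ± 0.23. The NF-kB-induced miR-155 differed by 0.16 ± 0.23, miR-146 by -0.02 ± 0.16 (0.07 with the values as deposited) and miR-21 by 0.25 ± 0.21 (-0.07 in the 8 arrays). The miR-17-92 list had a median of 0.01 over 10 -a rows (0.11 in the 8 arrays), led by miR-19b-1 (0.57), miR-20b (-0.36) and miR-25 (-0.35). The Dlk1-Dio3 list, from an imprinted locus on chromosome 12 in the mouse that also holds miR-370, had a median of -0.10 over 21 -a rows (-0.02 over 18 in the 8 arrays) with 0 called. It was led by miR-376b-3p (-0.76 ± 0.28), miR-667 (-0.47 ± 0.18) and miR-487b (-0.55 ± 0.21). The miR-370 row differed by 0.98 ± 0.46 with all arrays and by 0.01 in the 8 arrays, which is fixed by its use to choose them.

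Most -a rows for markers of tissues other than spleen had too few values to be tested, with 1 of 4 pancreatic ones tested. The liver marker miR-122a was not tested, since it lacked 3 values in a group. The pancreatic marker miR-375 had levels of 7.75, 7.31, 10.54, 8.15 and 8.43 in p53KO and of 8.66, 10.41, 8.60, 7.73 and 12.21 in NOS2KO. Single arrays of both groups thus stood far above the rest, among them p53KO array 3 and NOS2KO array 5, which also stood apart in rows above. The difference was -1.09 ± 0.81 (adjusted p = 0.414), the 2 tested pancreatic -p rows were at -0.45 and -0.29, and the part of pancreatic tissue in other rows was not tested. Of 13 nervous system -a rows 4 were tested, led by miR-9-3-5p, miR-128b (0.25) and miR-9*-2-3p (0.06), and of 4 -p rows 1 was, at 0.23. Of 10 striated muscle -a rows 2 were tested, with differences of 0.25 and -0.13, and of 4 -p rows 2 were, at -0.23 and -0.01. Lymphoid, myeloid and erythroid markers of spleen measured on all arrays were bright on average in both groups, which covers 2 of the 3 erythroid rows. In the saline controls, not the treated groups, the remaining erythroid row, miR-144, was dimmer than those 2. Its control means were 6.70 in p53KO and 7.82 in NOS2KO. Over the -p rows as a whole the median difference was -0.12 (114 rows), against the 0.12 of the -a rows.

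The saline controls showed which of these differences were present without C. parvum. Among controls (4 p53KO and 5 NOS2KO arrays, all above 10 in miR-370), 3 rows were called and 326 tested rows were not (0.912% called, 0.304% higher in p53KO and 0.608% lower), and 61 rows had an unadjusted p under 0.05 (18.5%). The miR-193 row was again higher in p53KO and the miR-210-p row again lower. With only these 9 arrays fitted, miR-193 alone was called, and with the replicate block 0 rows were, against 79 at an unadjusted p under 0.05. The control levels of miR-193 were 9.84, 9.30, 8.95 and 9.40 in p53KO and 8.30, 7.40, 7.57, 7.93 and 8.27 in NOS2KO. These groups did not overlap, as in 6.38% of the tested rows, and the difference was 1.48 ± 0.25 (adjusted p = 0.000365). The control levels of miR-210-p were 8.75, 9.15, 9.23 and 8.96 in p53KO and 9.57, 10.05, 9.66, 9.86 and 9.98 in NOS2KO. They did not overlap either, with a difference of -0.80 ± 0.20 (adjusted p = 0.0321). The remaining call, miR-338-p, differed by -1.09 ± 0.26 among controls (adjusted p = 0.0309) and by -0.44 ± 0.25 after C. parvum (adjusted p = 0.285).

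**Figure D3:**
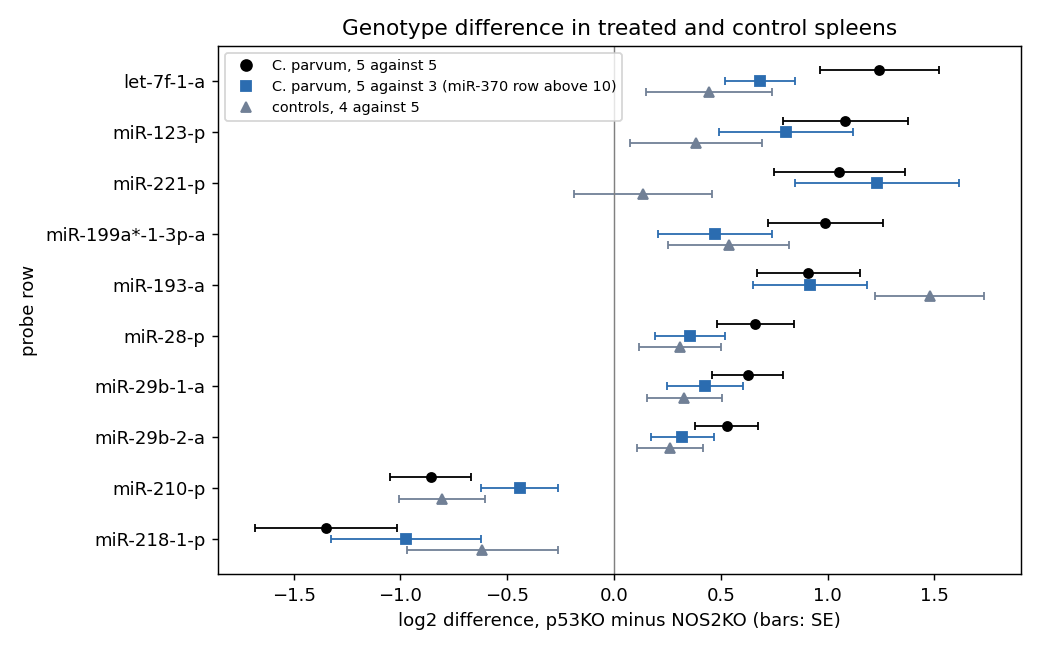
Difference in log2 signal, p53KO minus NOS2KO (horizontal axis, bars are SE), for the 10 called probe rows (vertical axis) after C. parvum with all 10 arrays (black circles), after C. parvum with the 8 arrays above 10 in miR-370 (blue squares) and in the saline controls (grey triangles). All 10 rows have the same sign in the 3 estimates, and miR-193 is at 0.91, 0.92 and 1.48.

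**Figure D4:**
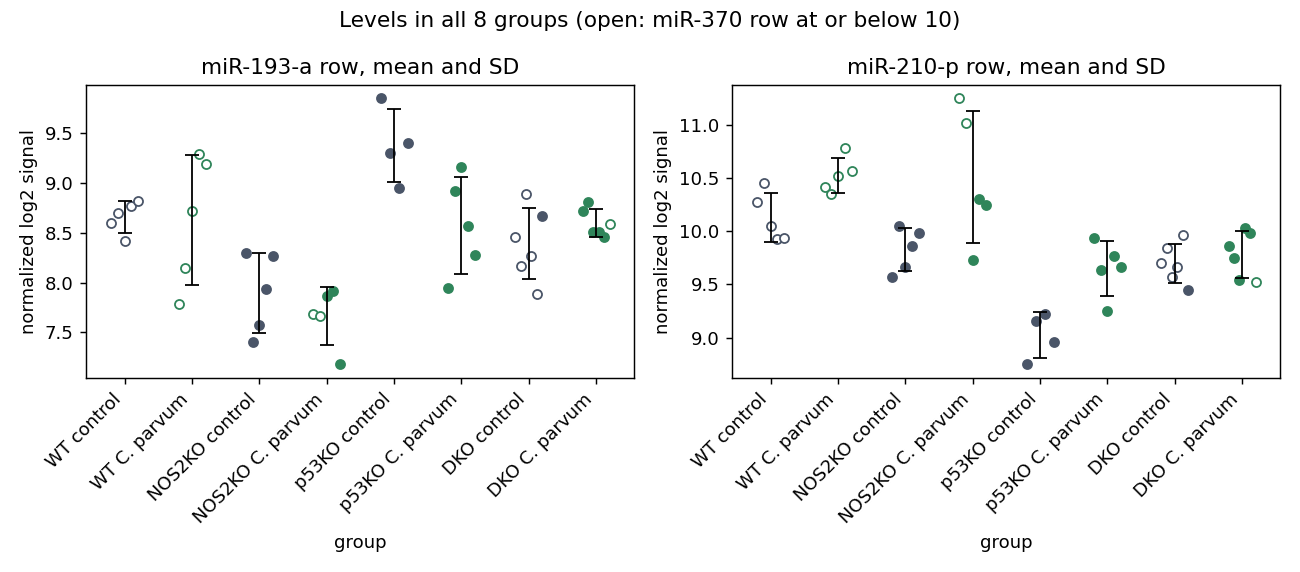
Normalized log2 signal (vertical axis) of the miR-193-a row (left) and the miR-210-p row (right) in the 8 groups of the study (horizontal axis), with every array as a point, open where miR-370 is at or below 10, and the mean and SD as bars. For miR-193 the NOS2KO means of 7.89 and 7.66 are the lowest, and for miR-210 the p53KO means of 9.02 and 9.65 are the lowest.

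Set beside the other genotypes, the miR-193 row was lowest in NOS2KO. After C. parvum its level was 7.66 ± 0.29 in NOS2KO, 8.57 ± 0.48 in p53KO, 8.62 ± 0.65 in WT and 8.60 ± 0.14 in DKO (SD, n = 5, 5, 5 and 6). The p53KO, WT and DKO means lay within 1 SD of each other. Among controls it was 7.89 ± 0.40 in NOS2KO, 8.39 ± 0.36 in DKO, 8.66 ± 0.16 in WT and 9.37 ± 0.37 in p53KO. The miR-210-p level after C. parvum was 9.65 ± 0.25 in p53KO and 9.78 ± 0.22 in DKO, and it was 10.5 in both WT and NOS2KO (SD 0.17 and 0.62). The WT arrays all lie at or below 10 in miR-370, so for WT the genotype and the set cannot be told apart. In DKO, control arrays 1 to 5 and C. parvum array 6 also lay at or below 10. Among controls the genotype and the set are thus largely mixed for DKO as well.

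The difference between genotypes in their response to C. parvum was tested directly as an interaction. With limma, 0 of 311 rows were called (0%), and 15 had an unadjusted p under 0.05 (4.82%). For miR-193 the difference of responses was -0.57 ± 0.35 (adjusted p = 0.842), for miR-210-p -0.05 ± 0.28, for let-7f-1 0.80 ± 0.40 and for miR-221-p 0.92 ± 0.44. The 5 smallest p belonged to miR-196a-2-p (-1.25 ± 0.38), miR-532-p (-0.90 ± 0.28), miR-293-a (0.56 ± 0.21), let-7b-p (-1.32 ± 0.50) and miR-503-p (1.40 ± 0.53). The median SE of a difference of responses was 0.35, against 0.25 for the difference after C. parvum.

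Over the 311 rows tested in both, 69.5% had the same sign after C. parvum and among controls, with Pearson's r of 0.55 and Spearman's rho of 0.56. The 2 comparisons share no arrays, but rows of 1 family are not independent and the value describes these arrays. In the arrays above 10, 68.6% of rows had the same sign, with r of 0.56. All 10 rows called after C. parvum had the same sign among controls, from 0.14 for miR-221-p to 1.48 for miR-193 among the higher rows.

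Because the signs matched, the mean of the genotype differences with and without C. parvum was also estimated, a comparison chosen after seeing the data, as were the rows named for it. It called 57 of 311 rows (18.3%), 31 higher in p53KO (9.97%) and 26 lower (8.36%), with 34.7% at an unadjusted p under 0.05. Of the 10 rows above, 9 were among the 57, miR-221-p being the exception. The mean includes the C. parvum differences that chose these 10 rows, so this overlap is no separate support for them. In the 23 arrays above 10 it called 25 rows and not 271 others (8.45% called), 21 of them in common with the 57. Without the 2 low NOS2KO arrays, and with all other arrays kept, it called 9. The miR-193 row had the smallest p in both fits, with a mean difference of 1.19 ± 0.17 (adjusted p = 1.24e-05) and of 1.20 ± 0.18 in the arrays above 10 (adjusted p = 0.000406). There miR-210-p was at -0.62 ± 0.12, let-7f-1 at 0.56 ± 0.11 (adjusted p = 0.00525 each) and miR-760-p at -0.84 ± 0.18 (adjusted p = 0.00814). Rows for miR-218-a (0.72 ± 0.17), miR-132 (0.64 ± 0.15), miR-7-1-p (0.68 ± 0.17), miR-181a-5p (0.50 ± 0.12), miR-29c (0.54 ± 0.14) and miR-143 (0.62 ± 0.17) were also called there, with adjusted p from 0.015 to 0.0363.

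**Figure D5:**
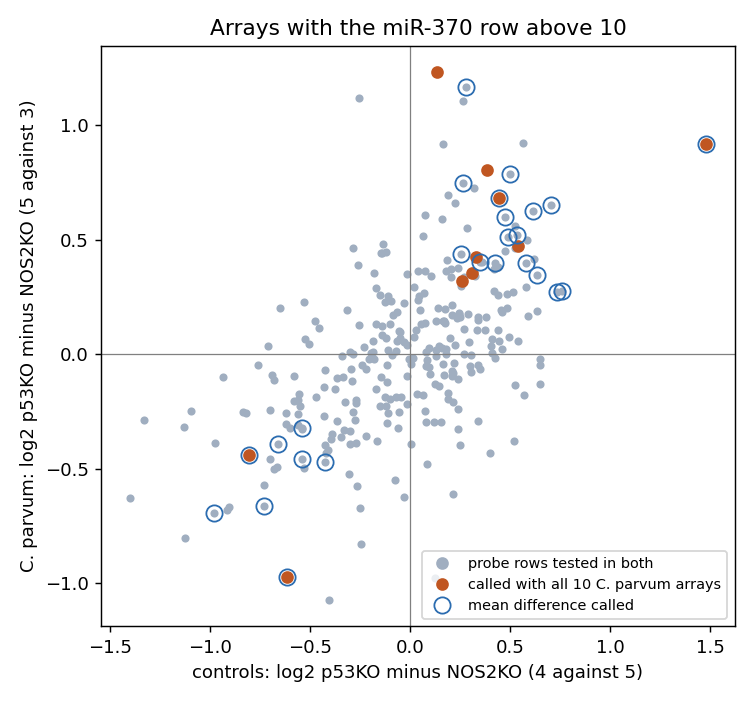
Difference in log2 signal, p53KO minus NOS2KO, among saline controls (horizontal axis, 4 against 5 arrays) and after C. parvum (vertical axis, 5 against 3 arrays) for the rows tested in both within the arrays above 10 in miR-370. Orange points are the 10 rows called with all 10 C. parvum arrays, blue rings are the 25 rows whose mean difference was called, and miR-193 lies apart at 1.48 and 0.92.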

How the data were processed

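The authors deposited 1 table of log2 values with 637 probe rows for 41 one-channel arrays; the log base was inferred, not stated. No source used here gives the scanner, the background correction or the authors' normalization. Of 26117 cells, 10562 (40.4%) are empty. Biotin-labelled first-strand cDNA was made from Trizol-extracted spleen RNA, per the labels' protocols. Array medians over the 227 rows measured everywhere spanned 0.705, so arrays were quantile-normalized, with missing cells ranked below measured ones and left missing. Differences are thus relative to the bulk of rows.

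All 8 group means were fitted per row with limma 3.58.1 (R 4.3.3), variances were moderated, and p-values were adjusted by Benjamini-Hochberg at 0.05; rows needed 3 values per group. The fit was tested on simulated data. The sets were split at 10 in the deposited miR-370-a row. Named rows were the 10 largest called changes each way (5 elsewhere, or the 5 smallest p), 15 preset miRNAs and up to 3 members per list with the smallest p. Members, lists and tests were chosen with earlier results of these data known. Alternatives covered scaling, filters, missing cells, the set, weights, replicate numbers and left-out arrays. The number of arrays limits the precision.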

Additional observations from a re-analysis of the deposited data

Results flagged for a closer look

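In 5 of the 49 sets of 4 or 5 treated arrays examined for the rows named in the C. parvum comparison, 1 array stood far from the rest of its group by Dixon's test; chance flags about 1 in 20 such sets. NOS2KO array 5 was at 7.71 in the miR-221-p row, against 9.36 to 9.84 in the other arrays. It was also at 8.11 in the miR-34a row, against 5.87 to 6.23, and at 13.44 in the miR-486 row, against 14.35 to 14.51. In p53KO, array 3 was at 11.9 in the miR-486 row, against 14.21 to 14.51, and array 4 was at 12.4 in the miR-370 row, against 11.43 to 11.61. What set these arrays apart was not tested.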

How the results depend on the processing

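The count of 10 rows called after C. parvum was 26 with the values as deposited, 24 over rows measured on all arrays, 28 with missing cells at a low value and 4 with array weights. It was 1 in the arrays above 10 in miR-370. It was 0 with the set as a block, with only the groups compared, with both restrictions together, without both low NOS2KO arrays and with the replicate block, where 35 rows had an unadjusted p under 0.05. Leaving out single arrays gave 0 to 31 calls: 0 without NOS2KO array 1 or 2 or p53KO array 2, 4 without p53KO array 3 or 4, 16, 17 and 20 without NOS2KO array 4, p53KO array 5 and NOS2KO array 5, 26 without p53KO array 1 and 31 without NOS2KO array 3. Of the calls, 60% were higher with median centring, 58.3% over common rows and 67.9% with low missing cells, against 80%. The values as deposited carried a median shift of 0.13 after C. parvum and 0.17 among controls.

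Among controls the 3 calls became 5 with median centring and with array weights, 1 with only the groups compared (in all arrays or those above 10) and 0 with the replicate block, and 1 to 8 when single arrays were left out (8 and 7 without NOS2KO control 1 and p53KO control 4, 1 without NOS2KO control 2 or p53KO control 5). The difference of responses gave 0 calls under all settings run, except 1 without NOS2KO array 5. The mean difference gave 33 calls with only the groups compared, 25 in the arrays above 10, 12 with both restrictions, 27 with array weights, 24 with the replicate block, 9 without both low arrays and 31 to 71 with single arrays left out. Correlations of same-numbered deviations were 0.32, -0.33, -0.12, -0.01 and -0.33 after C. parvum, and 0.43, 0.36, 0.05 and 0.26 among controls. The control values were all above 0, while differently numbered control arrays ran from -0.54 to 0.38. Whether replicate numbers pair the control arrays is therefore not settled, and apart from the replicate block the arrays were fitted without pairing.

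Among single rows, none of those called changed sign under the settings run. For miR-34b-p the sign turned with the set as a block (0.25), in the arrays above 10 (0.26), with the replicate block (0.11) and with left-out arrays (-0.20 to 0.10). For miR-34c-p it turned with median centring (-0.033), low missing cells (-0.47), array weights (-0.066) and left-out arrays (-0.14 to 0.26). For miR-146 it turned with deposited values (0.067), the set block and the arrays above 10 (0.076 each) and left-out arrays (-0.17 to 0.075). It turned for miR-21 in the arrays above 10 (-0.073), and with arrays left out for miR-155 (-0.064 to 0.44), miR-486 (-0.60 to 0.086) and miR-451 (-0.36 to 0.024). Except for the settings that leave out arrays or add a term, the causes were not tested.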
